A study of Mus musculus with 50 samples.

Results

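The genes described here are 38 genes of the urea cycle and of amino acid catabolism, measured by RNA-seq in liver and liver tumours of C3H/He mice. They were chosen by name, as the rows of the count table whose gene symbol is on a list of 38 members, out of 45792 rows, and all 38 were found. The libraries came from 6 groups of male C3H/He mice with a harvest time of 48 weeks, which the sources count in 1 place from the start of the diet and in another as age, so the age is not certain. There were 12 non-tumour livers of mice on the control diet, 11 non-tumour livers of mice on the ALIOS diet (the American lifestyle diet, rich in trans fat, with sugar in the drinking water), 13 tumours of ALIOS fed mice and 1 tumour of a control fed mouse. The other 2 groups were tumours of mice that also received the liver carcinogen DEN (diethylnitrosamine), of which 8 came from ALIOS fed and 5 from control fed mice. Tumours of mice without DEN are called spontaneous. Spontaneous tumour T1 was left out by the rule that chose the members, which leaves 12 such tumours and 49 libraries. T1 went against its label of liver: its 6 kidney markers summed to 45330.4 CPM, where the other 49 libraries had at most 24.1 CPM, and its 22 hepatocyte markers to 849.9 CPM. No non-tumour liver of a mouse given DEN was analysed here, so DEN and tumour cannot be told apart when a DEN tumour is compared with a liver. The labels do not tie tumours or livers to individual mice, so the p-values measure the spread between libraries.

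The urea cycle turns the ammonia released from amino acids into urea. It runs between the mitochondria and the cytosol of hepatocytes, chiefly in the periportal zone of the liver lobule, while glutamine synthetase (Glul) takes up remaining ammonia around the central vein. Most essential amino acids are broken down in hepatocytes, each through its own chain of enzymes, and the carbon goes to glucose, ketones or the citric acid cycle. Methionine and choline breakdown in liver also sets the supply of S-adenosylmethionine, the methyl donor of the cell.

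Library totals lay between 23798251 and 45751398 counts. Levels are given as CPM, the share of a library's counts on a fixed scale, after trimmed mean (TMM) scaling over the 49 libraries. Values of T1 are CPM without that scaling. Levels of different genes are compared only as RPKM, which also divides by exon length. A gene was called changed at an adjusted p under 0.05 in edgeR's quasi-likelihood test, and fold changes are on the log2 scale with their standard error (SE). The defining hepatocyte genes were present throughout: the summed level of 22 hepatocyte markers ran from 116484 CPM, in T24, to 342368 CPM over the 49 libraries. DEN tumour T24 stood apart from the other tumours and the comparisons that it changes are given with and without it.

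In the control diet livers the members spanned a wide range of levels. Per length, the highest were Hpd, the 4-hydroxyphenylpyruvate dioxygenase of tyrosine breakdown, with a median of 939 RPKM, and Ass1, the argininosuccinate synthetase, with 922 RPKM. Gnmt, which spends S-adenosylmethionine on glycine, had 871 RPKM and Mat1a, which makes it, had 859 RPKM. The lowest was Bcat2, the branched chain aminotransferase found mainly outside the liver, with 6.11 RPKM.

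Within the urea cycle, Ass1 was followed per length by Arg1, the arginase that releases urea, with 642 RPKM and by Cps1, the carbamoyl phosphate synthetase that takes up ammonia, with 630.3 RPKM. Otc (ornithine transcarbamylase) had 117 RPKM and Asl (argininosuccinate lyase) 100.1 RPKM. The ornithine carrier Slc25a15 had 50.8 RPKM, and Nags, which makes the activator of Cps1, was the lowest of the 7 with 18.9 RPKM. Nags and Slc25a15 thus stood well below the other 5 genes of the cycle in RNA per length.

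**Figure D1:**
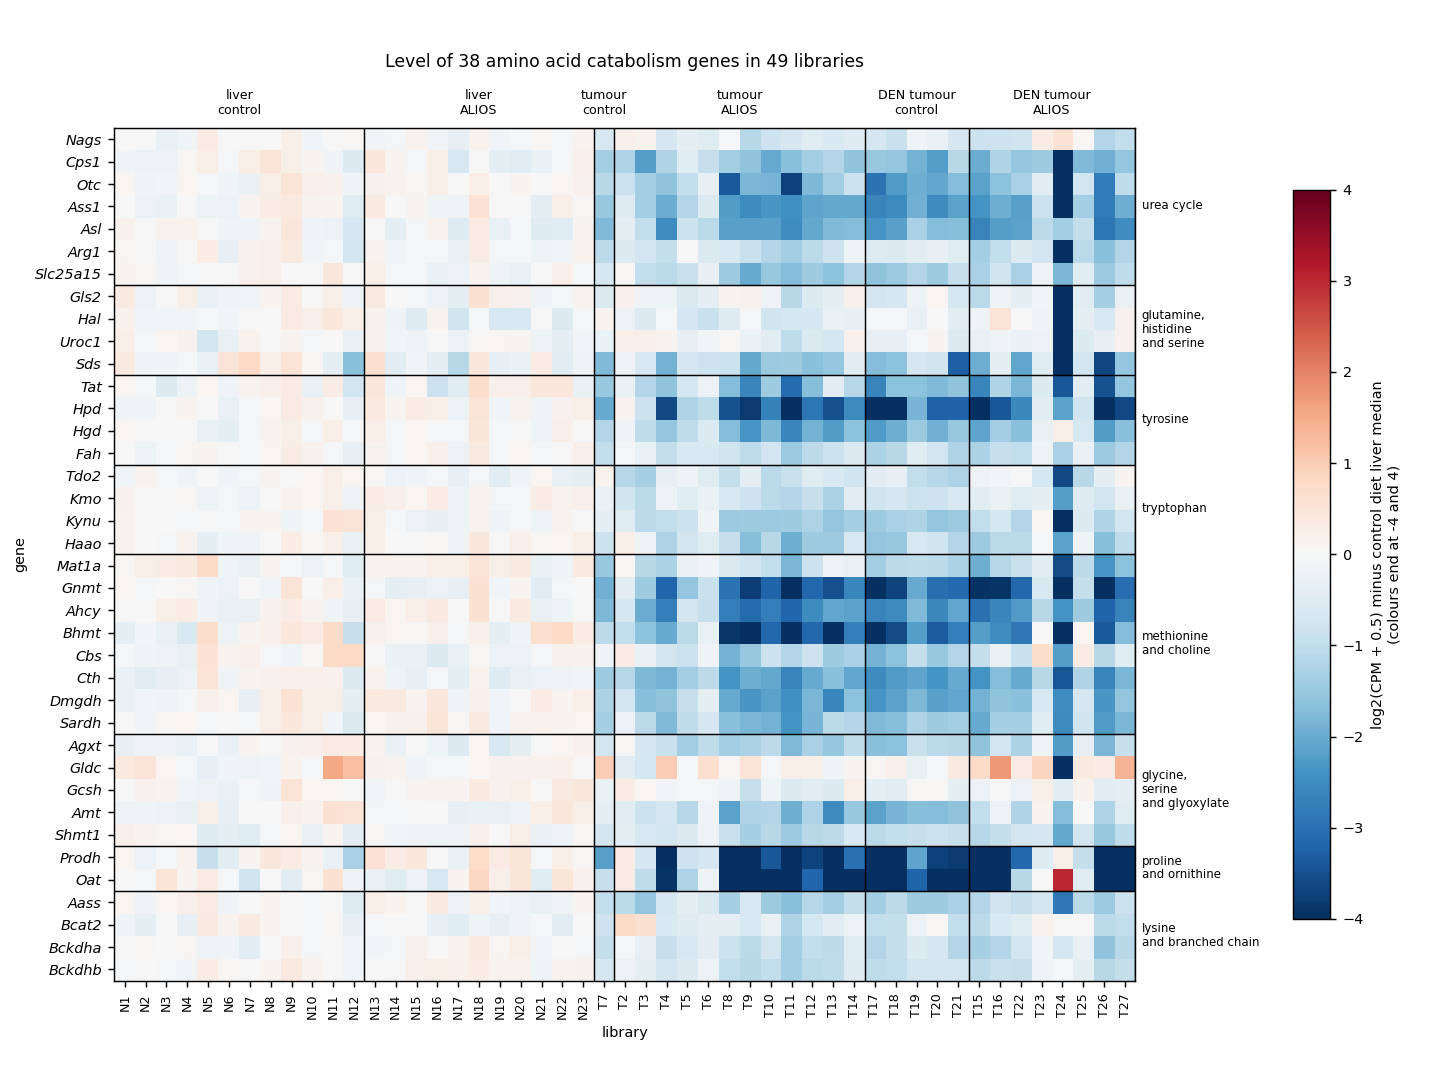
Each row is 1 of the 38 members and each column 1 of 49 libraries, and the colour gives log2(CPM + 0.5) minus the median of the control diet livers, with colours ending at -4 and 4. The 23 livers are pale throughout and most tumour columns are blue. Hal, Uroc1 and Gldc stay pale in most tumours. T24 combines deep blue in Cps1, Otc, Ass1 and Arg1 of the urea cycle with red in Oat, and its Nags is pale.

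The promoters of 4 members whose results differ are printed here, as 300 bases around the annotated start in RefSeq's GRCm38.p6 tables, which held 30 of the 38 members. Ahcy and Gnmt were lower in each of the 3 comparisons of tumours with livers, Oat had the largest difference between the diets in DEN tumours, and Hal was not called in any of those 3 comparisons. Ahcy is at chr2:155074448-155074747 on the minus strand, Gnmt at chr17:46729116-46729415 on the minus strand, Oat at chr7:132576349-132576648 on the minus strand and Hal at chr10:93488518-93488817 on the plus strand. Capitals mark matches on either strand to 4 motifs, none of which contains another: the TATA box (TATAAA), a C/EBP site (TTGCNNAA), a TCF site (CTTTGAT) and the CCAAT box (CCAAT).
Ahcy: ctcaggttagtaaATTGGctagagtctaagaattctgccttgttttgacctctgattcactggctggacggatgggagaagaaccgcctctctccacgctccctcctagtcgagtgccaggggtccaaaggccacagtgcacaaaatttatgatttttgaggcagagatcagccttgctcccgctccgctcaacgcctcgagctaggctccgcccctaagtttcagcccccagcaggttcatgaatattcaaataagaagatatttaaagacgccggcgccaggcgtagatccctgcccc
Gnmt: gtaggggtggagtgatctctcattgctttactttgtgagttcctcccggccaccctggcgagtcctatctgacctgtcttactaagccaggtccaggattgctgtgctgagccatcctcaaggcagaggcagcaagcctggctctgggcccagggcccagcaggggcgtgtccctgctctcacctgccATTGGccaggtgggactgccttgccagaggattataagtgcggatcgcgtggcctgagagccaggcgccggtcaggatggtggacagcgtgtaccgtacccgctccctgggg
Oat: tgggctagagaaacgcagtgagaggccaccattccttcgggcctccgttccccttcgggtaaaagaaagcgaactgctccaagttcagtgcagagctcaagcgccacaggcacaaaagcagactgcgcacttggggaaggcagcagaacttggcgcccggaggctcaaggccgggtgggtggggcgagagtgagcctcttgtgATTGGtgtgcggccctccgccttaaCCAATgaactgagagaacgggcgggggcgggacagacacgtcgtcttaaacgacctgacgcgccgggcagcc
Hal: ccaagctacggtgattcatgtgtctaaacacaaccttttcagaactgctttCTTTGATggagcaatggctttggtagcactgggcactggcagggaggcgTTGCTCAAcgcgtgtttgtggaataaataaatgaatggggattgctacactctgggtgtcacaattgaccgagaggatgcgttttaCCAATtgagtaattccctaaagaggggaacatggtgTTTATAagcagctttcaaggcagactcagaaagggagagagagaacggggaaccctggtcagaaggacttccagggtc
The promoter of Hal held all 4 motifs, that of Oat held 2 CCAAT boxes, and those of Ahcy and Gnmt held 1 CCAAT box each. Over the 30 members with a promoter, 16 (53.3%) held a CCAAT box, against 37.4% of all 32851 promoters in the table. The TATA box, the C/EBP site and the TCF site were each found in 3 members (10.0%), against 13.6%, 10.8% and 3.73% of all promoters. For each member 1 promoter was taken, the nearest to the gene's start in Gencode, while the background counts every promoter listed. The shares are thus not of like sets. The promoter of Kmo lay 11812 bases from that start. A match is a run of letters and not a bound site.

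The first comparison was of diet in non-tumour liver, and it showed almost no difference in these genes. Of the 38 members, all tested, 1 was lower on the ALIOS diet and 0 were higher, against 4.51% lower and 6.73% higher among 13723 genes. The exception was Hal, histidine ammonia-lyase, the first enzyme of histidine breakdown. Hal had a lowest, median and highest level of 143, 155 and 214 CPM in the 12 control diet livers and of 89.2, 139.8 and 177 CPM in the 11 ALIOS diet livers. In 6 of the 11 ALIOS diet livers Hal was below every control diet liver, and the others overlapped. The fall was 0.35 (SE 0.11, adjusted p = 0.0475) on the log2 scale, or 1.27-fold. This single call lay close to the threshold and was lost under several other settings. The median change over the 38 members was 0.03, against -0.02 over all genes tested. None of the 7 urea cycle genes was called, with fitted changes between -0.13 and 0.09. In the same livers 7 of 10 macrophage markers and 3 of 4 tested T cell markers were higher on the ALIOS diet, and their part in the members' values was not tested.

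The second comparison, of 12 spontaneous tumours with 11 livers on the ALIOS diet, showed a broad fall. Of the 38 members 33 were lower and 0 higher, against 25.9% lower and 26.9% higher of 14183 genes. The median change was -1.01, against 0.01 over all genes. In 10 members every tumour lay below every liver (Otc, Ass1, Kmo, Gnmt, Ahcy, Cth, Dmgdh, Sardh, Aass and Bckdhb), where 2.71% of all genes tested did so. The largest falls were those of Bhmt, Prodh and Ahcy.

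All 7 urea cycle genes were lower in the spontaneous tumours. Cps1 had a lowest, median and highest level of 2237, 3362 and 4757 CPM in the ALIOS diet livers and of 759, 1345 and 2484 CPM in the tumours. All but 1 tumour, T5, lay below every liver, and the fall was 1.33 (SE 0.17, adjusted p = 1.31e-06). Ass1, with 1751, 2245 and 3297 CPM in livers and 380.2, 537 and 1557 CPM in tumours, did not overlap between the groups and fell by 1.74 (SE 0.23, adjusted p = 1.85e-06). Otc did not overlap either, going from 532 to 175 CPM at the medians, and fell by 1.57 (SE 0.26, adjusted p = 2.67e-05). Asl fell by 1.44 (SE 0.22, adjusted p = 1.26e-05), Slc25a15 by 1.06 (SE 0.18, adjusted p = 4.53e-05) and Arg1 by 0.72 (SE 0.13, adjusted p = 8.66e-05). The smallest change of the 7 was that of Nags, which fell by 0.43 (SE 0.12, adjusted p = 0.00431), and the tumour T2 lay above every ALIOS diet liver in Nags. The cycle's RNA was still detected in tumours, with medians of 1345 CPM for Cps1 and 824 CPM for Arg1.

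**Figure D2:**
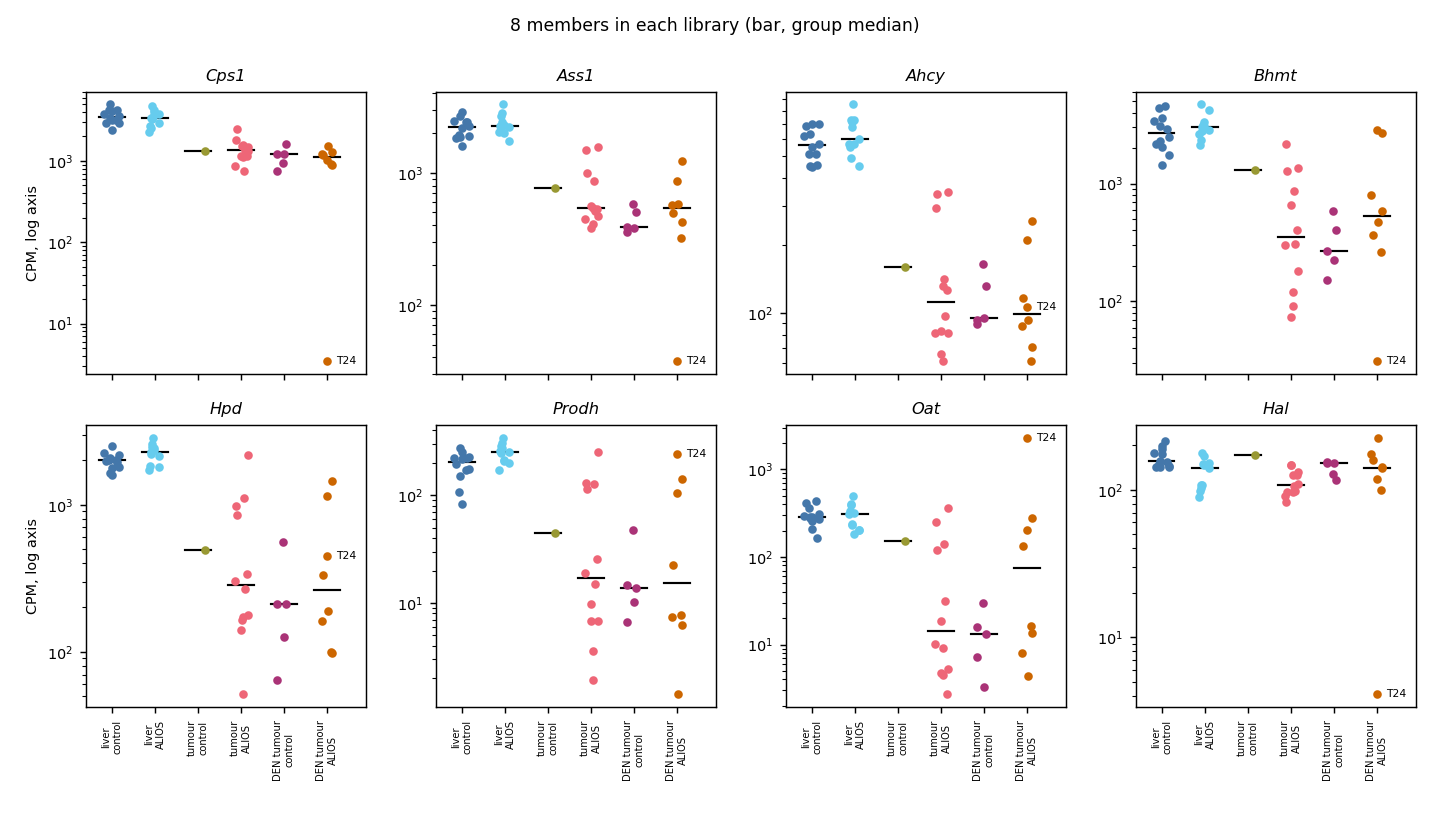
Levels of 8 members in CPM on a log axis, with 1 point per library, 6 groups on the horizontal axis and a bar at each group median. Ass1 and Ahcy of all tumours lie below all livers, Oat and Prodh spread widely among tumours, and T24 is far below the other tumours in Cps1, Ass1 and Hal and highest of all 49 libraries in Oat.

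The 8 genes of methionine and choline metabolism were all lower, with a median change of -1.69. Bhmt, which remethylates homocysteine with betaine, had 2118, 3029 and 4694 CPM in livers and 73.6, 353 and 2167 CPM in tumours as lowest, median and highest. It fell by 2.31 (SE 0.46, adjusted p = 2.07e-04), and its tumours spread from far below the livers up to the livers' lowest values. Ahcy, which hydrolyses S-adenosylhomocysteine, had 455, 596 and 853 CPM in livers and 61.3, 112 and 347 CPM in tumours. Every tumour was below every liver, and Ahcy fell by 2.07 (SE 0.28, adjusted p = 3.01e-06). A retrogene of Ahcy, Gm4737, is in the annotation, and reads that fit both equally could be missing from either. Gnmt fell by 2.05 (SE 0.37, adjusted p = 8.28e-05) with no overlap. Cth, Dmgdh and Sardh, which make cysteine and oxidise dimethylglycine and sarcosine, fell by 1.63, 1.75 and 1.47, also with no overlap. Mat1a fell by 0.84 and Cbs, the cystathionine synthase, by 0.67, and the tumour T2 lay above every liver in Cbs.

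Among the roles, the 2 genes of proline and ornithine breakdown spread most widely over the tumours. Prodh, the proline dehydrogenase, had 171, 249 and 342 CPM in livers and 1.91, 17.1 and 251 CPM in tumours, and fell by 2.13 (SE 0.62, adjusted p = 0.00602). Oat, the ornithine aminotransferase of pericentral hepatocytes, had 182, 309.6 and 501 CPM in livers and 2.70, 14.3 and 361 CPM in tumours, and fell by 1.97 (SE 0.69, adjusted p = 0.0199). Among the 12 tumours, T2, T3, T5 and T6 had 121 to 361 CPM of Oat and the other 8 had 2.70 to 31.2 CPM. The call on Oat was lost when libraries were scaled on hepatocyte markers.

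All 4 tyrosine genes were lower. Hpd had 1709, 2271 and 2859.7 CPM in livers and 51.3, 286 and 2179 CPM in tumours and fell by 2.05 (SE 0.45, adjusted p = 5.62e-04), with 11 of 12 tumours below every liver and T2 within the livers' range. Tat, Hgd and Fah fell by 1.29, 1.47 and 0.81. All 4 genes of the tryptophan chain were lower, Kynu by 1.04, Haao by 0.97, Kmo by 0.89 and Tdo2, its first enzyme, by 0.55. Of 5 genes of glycine, serine and glyoxylate metabolism 4 were lower, and Gldc, the decarboxylase of the glycine cleavage system, was not called at 0.07 (SE 0.14, adjusted p = 0.709). The T protein of the same system, Amt, fell by 1.16, Agxt by 0.94, Shmt1 by 0.80 and the H protein Gcsh by 0.38. Of the lysine and branched chain genes, Aass, Bckdhb and Bckdha fell by 1.08, 0.90 and 0.80, and Bcat2 was not called at -0.10 (SE 0.17, adjusted p = 0.640).

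The 4 genes of glutamine, histidine and serine breakdown stood closest to the livers. Only Sds, the serine dehydratase, was called, with a fall of 0.98 (SE 0.22, adjusted p = 6.93e-04). The liver glutaminase Gls2 had 181, 227 and 354 CPM in livers and 106, 204 and 267 CPM in tumours, with a change of -0.31 (SE 0.14, adjusted p = 0.0671). Uroc1, the urocanate hydratase that follows Hal, had 303, 354 and 435 and 189, 337 and 443 CPM, with a change of -0.15 (SE 0.13, adjusted p = 0.323), with 3 tumours above every liver and 4 below. The change of Hal was -0.25 (SE 0.13, adjusted p = 0.103).

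Hepatocyte markers divided in direction. In the spontaneous tumours 5 of 22 genes were higher and 10 lower, with a median change of -0.24. Per library, the median difference from control diet livers was between -0.50 and 0.18 for the hepatocyte markers and between -1.71 and -0.24 for the 38 members. Of the macrophage markers 7 of 10 were lower. Of the tested pericentral markers 5 of 7 were lower, and of 6 periportal markers 2 were lower and 3 higher. In whole tissue, fewer cells of a type and less RNA per cell cannot be told apart. Scaled on the hepatocyte markers instead of on all genes, 29 members were lower and 0 higher. The share of all genes called under this scaling was not taken, so this count has no background.

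The third comparison was of 5 DEN tumours with 12 livers on the control diet, and it gave the largest falls. Of the 38 members 34 were lower and 0 higher, against 24.4% lower and 27.3% higher of 14731 genes, and the median change was -1.41, against 0.03 over all genes. In 29 members every tumour lay below every liver, where 11.1% of all genes did so with these group sizes. The 4 that were not called were Hal, Uroc1, Gldc and Gcsh. By role, all genes of tyrosine, tryptophan, methionine and choline, proline and ornithine, and lysine and branched chain breakdown were lower, with 3 of 5 for glycine, serine and glyoxylate and 2 of 4 for glutamine, histidine and serine.

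Oat had the largest fall of any member. Its levels in the 5 tumours T17 to T21 were 7.23, 3.26, 30.2, 15.9 and 13.1 CPM, against a lowest, median and highest of 164, 284 and 436 CPM in the 12 livers. All 5 lay far below the livers, and the fall of 4.41 (SE 0.42, adjusted p = 5.88e-08) is 21.2-fold. Prodh was 6.67, 10.2, 47.3, 14.8 and 13.9 CPM, against 82.2, 204 and 274 CPM in livers, and fell by 3.35 (SE 0.41, adjusted p = 1.69e-06), or 10.2-fold. Bhmt was 151, 224, 584, 265 and 405 CPM, against 1429.5, 2697 and 4577 CPM, and fell by 3.11 (SE 0.35, adjusted p = 5.18e-07), or 8.64-fold. T19 had the highest level of all 3 genes among the 5 tumours.

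Of the urea cycle all 7 genes were lower in the control diet DEN tumours. Cps1 was 1231, 1206, 934, 755 and 1612 CPM in the 5 tumours, against 2373, 3501 and 4961 CPM in livers, and fell by 1.62 (SE 0.20, adjusted p = 1.34e-06). Ass1 was 357, 381, 584, 387 and 502 CPM, against 1602, 2225 and 2909 CPM, and fell by 2.30 (SE 0.17, adjusted p = 2.48e-09), or 4.94-fold. Neither gene overlapped between tumours and livers. Otc fell by 2.18 (SE 0.18, adjusted p = 9.52e-09), Asl by 1.79 (SE 0.18, adjusted p = 1.50e-07) and Slc25a15 by 1.35 (SE 0.12, adjusted p = 2.47e-08), each without overlap. Arg1 fell least, by 0.44 (SE 0.14, adjusted p = 0.0151), with all 5 tumours inside the range of the livers, and Nags fell by 0.51 (SE 0.11, adjusted p = 9.42e-04). In this comparison 6 of 22 hepatocyte markers were higher and 6 lower. Of other cell types, 4 of 8 stellate and matrix markers were higher and 2 lower, 3 of 5 tested T cell markers were higher and 1 lower, and 2 of 10 macrophage markers were higher and 4 lower. Their part in the members' values was not tested.

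In the fourth comparison, of 8 DEN tumours with 11 livers on the ALIOS diet, 27 members were lower and 0 higher, against 19.8% lower and 27.7% higher of 14434 genes. The median change was -1.0, against 0.08 over all genes. This comparison shares its livers with that of the spontaneous tumours. In 16 members every tumour lay below every liver, where 5.02% of all genes did so. Without T24, 32 members were lower and 1 higher, against 22.6% lower and 29.8% higher of 14506 genes, with a median change of -0.95. By role and with T24, 4 of 4 tyrosine genes were lower, 7 of 8 of methionine and choline, 4 of 5 of glycine, serine and glyoxylate, 3 of 4 of lysine and branched chains, 2 of 4 of tryptophan, 1 of 2 of proline and ornithine and 0 of 4 of glutamine, histidine and serine.

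The largest falls were those of Ahcy, Gnmt and Hpd. Ahcy had 60.9, 99.3 and 258 CPM as lowest, median and highest in these tumours, all below the lowest liver at 455 CPM, and fell by 2.31 (SE 0.25, adjusted p = 8.47e-07), or 4.96-fold. Gnmt had 47.4, 93.7 and 688 CPM, against 787, 983 and 1615 CPM in livers, and fell by 2.20 (SE 0.49, adjusted p = 0.00112). Hpd had 98.3, 261 and 1450.0 CPM and fell by 2.18 (SE 0.46, adjusted p = 7.54e-04). T23 had the highest level of the 8 tumours in all 3 genes, and still lay below every liver.

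Of the urea cycle 6 genes were lower. Cps1 had 3.46, 1114 and 1523 CPM and fell by 1.73 (SE 0.52, adjusted p = 0.00982), and Ass1 had 37.4, 536 and 1219.6 CPM and fell by 2.05 (SE 0.38, adjusted p = 2.10e-04). Both were below every liver in all 8 tumours. Otc fell by 1.54 (SE 0.37, adjusted p = 0.00206), Asl by 1.67 (SE 0.25, adjusted p = 2.35e-05), Arg1 by 1.18 (SE 0.31, adjusted p = 0.00383) and Slc25a15 by 0.89 (SE 0.18, adjusted p = 3.82e-04). Nags, with 23.4, 30.3 and 80.7 CPM in tumours and 42.4, 51.8 and 59.9 CPM in livers, was not called at -0.29 (SE 0.20, adjusted p = 0.242). Without T24 it was called, with a change of -0.48 (SE 0.17, adjusted p = 0.0245), so all 7 genes were then lower.

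T24 was the lowest library in many members. It held 3.46 CPM of Cps1, where the other 7 tumours of its group had 884 to 1523 CPM. Gls2 was at 0.565 CPM, Hal at 4.09 CPM, Uroc1 at 3.64 CPM, Sds at 0.106 CPM, Kynu at 0.759 CPM and Gldc at 0.229 CPM, each the lowest of the 49 libraries. Its Oat, at 2306 CPM, was the highest of the 49, and its Prodh, at 241 CPM, was in the range of the livers. Its Nags, at 80.7 CPM, was also the highest of the 49. The median difference of its hepatocyte markers from control diet livers was -0.98, the lowest of its group, and the part of this in the members' values was not tested. It also had the highest summed pericentral markers of its group, 25561 CPM, and the lowest summed periportal markers, 37.5 CPM. Of other cell types, its stellate and matrix markers summed to 1194 CPM, its macrophage markers to 424 CPM and its T cell markers to 23.2 CPM, each the highest of its group, and its endothelial markers to 113 CPM, the lowest.

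Several calls turned on T24. With it, Oat had a fitted change of 0.31 (SE 0.83, adjusted p = 0.782), and without it -1.66 (SE 0.66, adjusted p = 0.0418), a fall. Gldc had levels of 202, 396, 149, 218, 158, 147 and 309.6 CPM in the other 7 tumours, all above the highest ALIOS diet liver at 139 CPM. With T24 its change was 0.66 (SE 0.52, adjusted p = 0.308) and without it 0.85 (SE 0.16, adjusted p = 2.90e-04), the only member called higher. Gls2, Sds and Kynu were not called with T24 and were lower without it, at -0.56 (SE 0.16, adjusted p = 0.00802), -1.13 (SE 0.35, adjusted p = 0.0112) and -0.63 (SE 0.14, adjusted p = 0.00142). Hal, Uroc1, Tdo2, Cbs and Bcat2 were not called with or without T24.

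**Figure D3:**
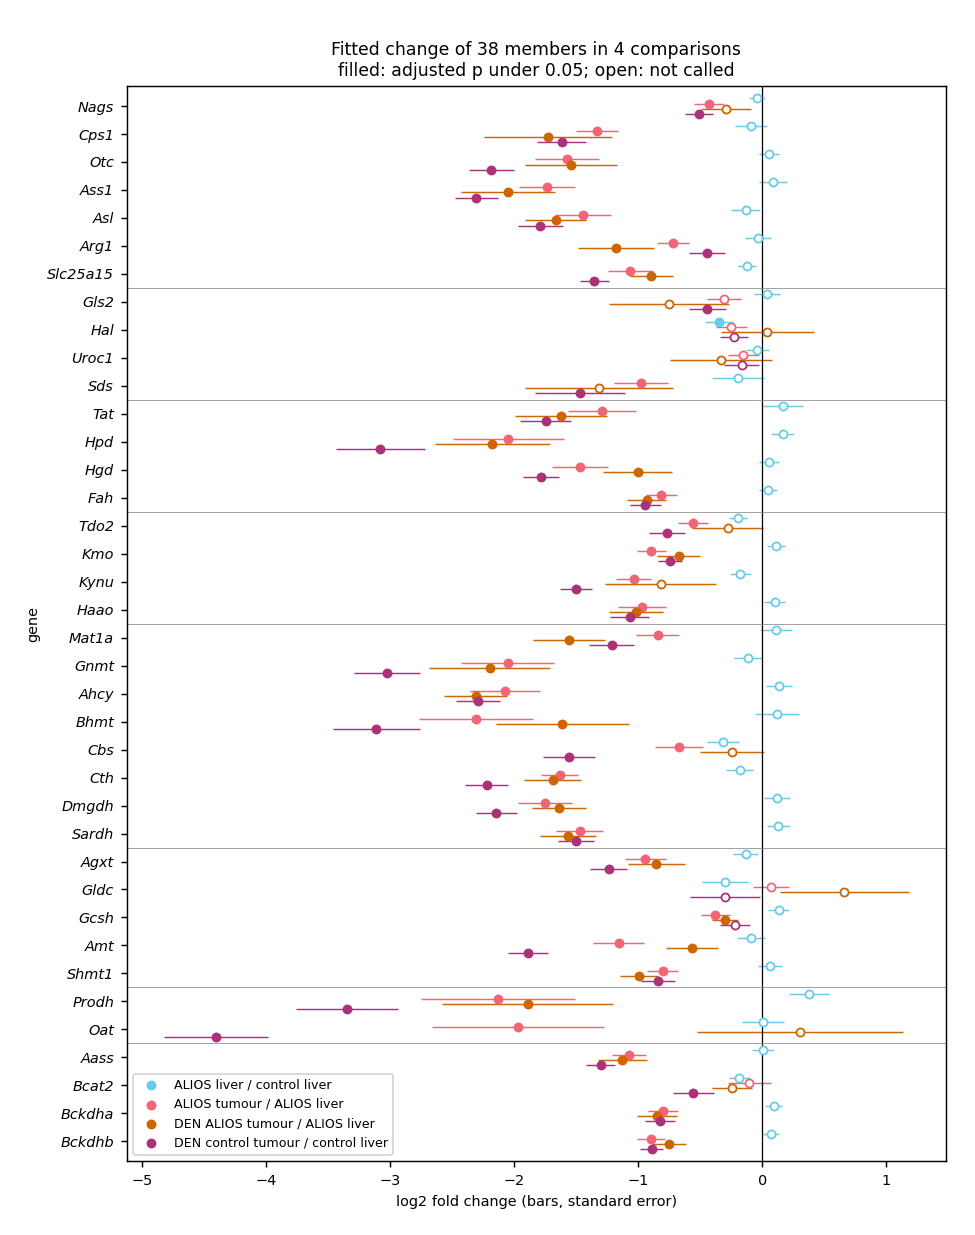
Fitted log2 fold changes of the 38 members with their standard errors in the diet comparison of livers and in 3 comparisons of tumours with livers, with filled points for called genes. The diet points lie near 0, most tumour points lie between -0.5 and -3, Oat spans -4.41 to 0.31, and Gldc, Hal and Uroc1 have no filled tumour point.

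The remaining members are described by the range of their medians over the 6 groups. In the tyrosine chain, the aminotransferase Tat had group medians from 419 CPM in the ALIOS diet DEN tumours to 1564 CPM in the ALIOS diet livers, the homogentisate dioxygenase Hgd from 159 CPM in the control diet DEN tumours to 616 CPM in the ALIOS diet livers and the last enzyme, Fah, from 270.4 CPM in the control diet DEN tumours to 617 CPM in the ALIOS diet livers. Of the tryptophan chain, the dioxygenase Tdo2 had group medians from 607 CPM in the control diet DEN tumours to 1326 CPM in the lone control diet tumour, the kynurenine monooxygenase Kmo from 132 CPM in the spontaneous ALIOS diet tumours to 253 CPM in the ALIOS diet livers, the kynureninase Kynu from 67 CPM in the control diet DEN tumours to 183 CPM in the control diet livers and Haao, which opens the ring of 3-hydroxyanthranilate, from 241 CPM in the control diet DEN tumours to 559.5 CPM in the ALIOS diet livers. Of these 4 genes Kmo had the narrowest ratio between its extreme medians.

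Around S-adenosylmethionine, Mat1a had group medians from 1039 CPM in the lone control diet tumour to 3565 CPM in the ALIOS diet livers, Gnmt from 93.7 CPM in the ALIOS diet DEN tumours to 1050.2 CPM in the control diet livers, Cth from 87 CPM in the control diet DEN tumours to 419 CPM in the control diet livers, Dmgdh from 134 CPM in the control diet DEN tumours to 677 CPM in the ALIOS diet livers, Sardh from 205 CPM in the ALIOS diet DEN tumours to 669 CPM in the ALIOS diet livers and Cbs from 109 CPM in the control diet DEN tumours to 314 CPM in the control diet livers. For glycine, serine and glyoxylate, Agxt, which detoxifies glyoxylate, had group medians from 213 CPM in the spontaneous ALIOS diet tumours to 476 CPM in the control diet livers, Shmt1 from 224 CPM in the ALIOS diet DEN tumours to 444 CPM in the control diet livers, Gcsh from 49 CPM in the control diet DEN tumours to 69.1 CPM in the ALIOS diet livers and Gldc from 119.6 CPM in the control diet livers to 242 CPM in the lone control diet tumour. The lone control diet tumour lay above every group median in Gldc, Hal and Tdo2.

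For lysine and the branched chain amino acids, Aass, the first enzyme of lysine breakdown, had group medians from 93.5 CPM in the control diet DEN tumours to 250.3 CPM in the ALIOS diet livers. The 2 subunits of the branched chain ketoacid dehydrogenase kept together: Bckdha had medians from 136 CPM in the control diet DEN tumours to 269 CPM in the ALIOS diet livers and Bckdhb from 53.7 CPM in the ALIOS diet DEN tumours to 112 CPM in the ALIOS diet livers. Bcat2 had medians from 12.1 CPM in the control diet DEN tumours to 23.8 CPM in the control diet livers. The genes nearest the livers had medians from 142 CPM in the control diet DEN tumours to 230.5 CPM in the control diet livers for Gls2, from 307 CPM in the control diet DEN tumours to 385 CPM in the control diet livers for Uroc1 and from 107 CPM in the spontaneous ALIOS diet tumours to 171 CPM in the lone control diet tumour for Hal, and Sds ranged from 61.5 CPM in the lone control diet tumour to 211 CPM in the control diet livers.

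The next comparison set the 8 DEN tumours against the 12 spontaneous tumours on the ALIOS diet. None of the 38 members was called by edgeR or by DESeq2, with 1 and 2 at an unadjusted p under 0.05, where 0% of 14845 genes were called higher and 0% lower. The median change was -0.10, and the widest was that of Oat at 2.25 (SE 1.10, adjusted p = 0.711). Without T24 the fitted change of Oat was 0.24 (SE 1.0, adjusted p = 0.993), and 6 members had an unadjusted p under 0.05, none called. Of the 7 urea cycle genes the fitted changes lay between -0.52 and 0.11.

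Diet among DEN tumours was compared in 8 ALIOS diet and 5 control diet tumours. No member was called by edgeR, with 3 at an unadjusted p under 0.05, where 0% of 14944 genes were called higher and 0.0134% lower. DESeq2 called 1 member, Amt. The median change was 0.21, against 0.04 over all genes. Without T24 no member was called, 11 had an unadjusted p under 0.05 and the median change was 0.32. Amt had 11.9, 14.3, 16.1, 15.7 and 17.3 CPM in the control diet tumours and a lowest, median and highest of 15.8, 32.4 and 59 CPM in the ALIOS diet tumours. In 7 of 8 ALIOS diet tumours Amt was above every control diet tumour, and its change was 1.24 (SE 0.30, adjusted p = 0.235). Kynu, at 67, 74.8, 76.7, 61.1 and 65.3 CPM in the control diet tumours, was exceeded by 7 of 8 ALIOS diet tumours and had a change of 0.51 (SE 0.65, adjusted p = 0.912), and of 0.70 (SE 0.20, adjusted p = 0.181) without T24.

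The difference between the diets in the change from liver to DEN tumour was tested as an interaction. Of the 38 members 3 were called, all with a higher change on the ALIOS diet, against 1.04% higher and 1.23% lower of 15606 genes. Oat fell by 4.41 on the control diet and had a change of 0.31 on the ALIOS diet, and the difference was 4.74 (SE 1.13, adjusted p = 0.0218). In the ALIOS diet DEN tumours Oat was 13.4 CPM in T15, 4.40 in T16, 132 in T22 and 282 in T23. It was 2306 CPM in T24, 203 in T25, 16.5 in T26 and 8.07 in T27. All but T23, T24 and T25 lay below the lowest ALIOS diet liver, at 182 CPM, so the fitted 0.31 describes no typical tumour. Amt fell by 1.89 and by 0.57, with a difference of 1.32 (SE 0.27, adjusted p = 0.00960). Cbs fell by 1.56 on the control diet and had a change of -0.24 on the ALIOS diet, with a difference of 1.31 (SE 0.35, adjusted p = 0.0352). Cbs was 84.9, 100.2, 163, 109 and 138 CPM in the control diet tumours and had a lowest, median and highest of 67.8, 197 and 509.7 CPM in the ALIOS diet tumours. Without T17 or without T18, and with all 6 groups in 1 fit, 1 member was called, Amt.

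Without T24, 5 members were called in the interaction, all higher, against 2.12% higher and 2.59% lower of 15540 genes. They were Amt at 1.42 (SE 0.25, adjusted p = 0.00216), Cbs at 1.44 (SE 0.30, adjusted p = 0.00544), Kynu at 0.86 (SE 0.19, adjusted p = 0.00790), Gldc at 1.14 (SE 0.33, adjusted p = 0.0401) and Oat at 2.72 (SE 0.79, adjusted p = 0.0404). In Amt, Cbs, Kynu and Gldc, N11 and N12 had the highest levels of the control diet livers. For Gldc they had 352 and 278 CPM, and the next liver, N2, had 173 CPM. This did not hold in Oat, with N12 at 258 CPM and N3 at 416 CPM. No liver was left out of the interaction, so the part of N11 and N12 in these calls was not tested. The 7 urea cycle genes were not called with or without T24, and Arg1 had the lowest adjusted p of them without it, at -0.57 (SE 0.19, adjusted p = 0.0702).

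Oat varied among tumours together with Glul, the glutamine synthetase. Over the 26 tumours, the 9 libraries with the most Oat (T24, T2, T23, T6, T25, T7, T3, T22 and T5) were also the 9 with the most Glul, a count chosen after the values were seen. These 9 had at least 121 CPM of Oat and 345 CPM of Glul, and the other 17 had at most 31.2 CPM of Oat and 154 CPM of Glul. The 23 livers held 164 to 501 CPM of Oat and 514 to 1286 CPM of Glul. The 5 control diet DEN tumours were all among the 17. So were the ALIOS diet DEN tumours T15, T16, T26 and T27, with 13.4, 4.40, 16.5 and 8.07 CPM of Oat. The spontaneous ALIOS diet tumours T4, T8, T9, T10, T11, T12, T13 and T14 made up the rest. The pattern was not particular to Oat and Glul. Prodh ran from 105.7 to 250.5 CPM in T2, T3, T5, T6, T23, T24 and T25. The other tumours had at most 47.3 CPM of Prodh. Bhmt ran from 866 to 2851 CPM in T2, T3, T5, T6, T7, T23 and T25. The other tumours had at most 799 CPM of Bhmt, and T24 had the least, 31.2 CPM. The paper's clustering placed T6 in a non-tumour sub-cluster. In the group comparisons Glul fell by 1.79 (SE 0.64, adjusted p = 0.0212) in spontaneous tumours and by 3.27 (SE 0.32, adjusted p = 7.75e-08) in control diet DEN tumours. In ALIOS diet DEN tumours its change was 1.51 (SE 0.88, adjusted p = 0.164), and its interaction was 4.81 (SE 1.17, adjusted p = 0.0253). Without T24 the change was -0.72 (SE 0.66, adjusted p = 0.372) and the interaction 2.51 (SE 0.78, adjusted p = 0.0558), so its direction in these tumours turned and the interaction was not called. Of the tested pericentral markers other than Glul, all 7 were lower in the control diet DEN tumours. In the interaction 3 of 7 were called higher with T24 and 0 without it, by edgeR, with 3 at an unadjusted p under 0.05.

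**Figure D4:**
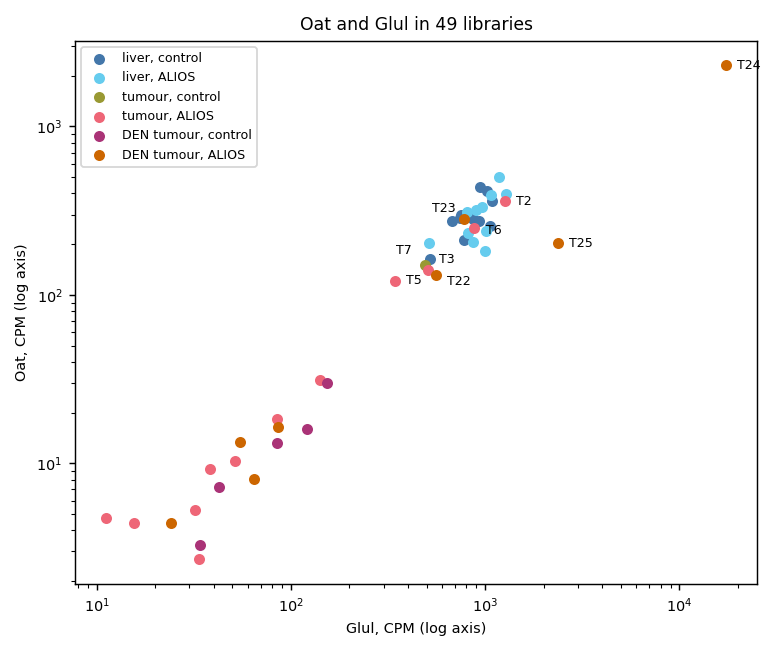
Oat against Glul in CPM, both on log axes, with 1 point for each of 49 libraries coloured by group. The livers form 1 cloud at 164 to 501 CPM of Oat, 17 tumours lie at or below 31.2 CPM, and T24 lies far above all others in both genes.

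Most other enzymes of amino acid breakdown were also lower in tumours. Of a list of 48 further enzymes, 46 were tested. In spontaneous tumours 35 were lower and 1 higher. The counts were 33 and 1 in ALIOS diet DEN tumours and 36 and 1 in control diet DEN tumours. Of all genes 25.9%, 19.8% and 24.4% were lower. Without T24 the ALIOS diet DEN tumours had 33 lower and 2 higher, against 22.6% and 29.8% of all genes. Among the largest falls in spontaneous tumours were those of Aadat, the aminoadipate aminotransferase, by 1.89 (SE 0.24, adjusted p = 1.20e-06), and Ido2 by 1.58 (SE 0.27, adjusted p = 4.44e-05). In ALIOS diet DEN tumours the largest were Afmid, the kynurenine formamidase, by 1.92, Ido2 by 1.65 and Aadat by 1.65. In control diet DEN tumours they included Aadat by 2.21 and Ppm1k, the phosphatase of the branched chain dehydrogenase, by 1.78.

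The 1 enzyme of this list that was higher in each tumour comparison was Glud1, the glutamate dehydrogenase. It had a lowest, median and highest of 819, 849 and 948 CPM in the ALIOS diet livers and of 712, 1252 and 1747 CPM in spontaneous tumours, and rose by 0.51 (SE 0.14, adjusted p = 0.00464). In DEN tumours it rose by 0.84 with ALIOS feeding and by 0.80 with control feeding. In non-tumour liver 3 of the 46 were lower on the ALIOS diet, a share near the 4.51% of all genes, Acmsd by 0.84 (SE 0.20, adjusted p = 0.0118), Glud1 by 0.22 (SE 0.07, adjusted p = 0.0471) and Pipox by 0.20 (SE 0.06, adjusted p = 0.0431).

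Several genes of amino acid synthesis were higher in tumours. Of a list of 20 genes of synthesis and of isoforms used outside the liver, 19 had a row and 16 were tested in the tumour comparisons, and 9 were higher in each of the 3, though not the same 9, where 26.9% to 27.7% of all genes were higher. Phgdh, the first enzyme of serine synthesis, had a lowest, median and highest of 0, 0.181 and 0.562 CPM in the ALIOS diet livers and of 0.271, 11 and 62.2 CPM in spontaneous tumours, and rose by 6.61 (SE 0.83, adjusted p = 1.16e-06). Psat1, the next enzyme, had 0.270, 0.701 and 1.55 and 1.81, 29.1 and 67.9 CPM, and rose by 5.29 (SE 0.57, adjusted p = 2.31e-07). Asns, the asparagine synthetase, had 0.213, 0.414 and 0.699 and 0.310, 3.13 and 64.8 CPM, and rose by 5.16 (SE 0.81, adjusted p = 1.62e-05). Every tumour was above every liver in Psat1, 11 of 12 in Asns and 10 of 12 in Phgdh.

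The same 3 genes had the largest rises of the list in the DEN tumours. On the ALIOS diet they rose by 5.95 for Phgdh, 5.09 for Psat1 and 4.42 for Asns, and on the control diet by 7.13, 4.78 and 4.68. The proline synthesis genes Pycr1 and Aldh18a1 rose by 3.03 and 2.46 in spontaneous tumours, where Prodh fell. Shmt2 and Glul were among the 6 genes of the list that were lower in spontaneous tumours. In non-tumour liver Aldh18a1 was higher on the ALIOS diet by 0.76 (SE 0.23, adjusted p = 0.0321), and Asns and Psph were lower by 1.30 (SE 0.40, adjusted p = 0.0387) and 0.27 (SE 0.08, adjusted p = 0.0305). The changes of Phgdh in tumours start from livers with few or no reads and depend on the small count added in the fit.

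**Figure D5:**
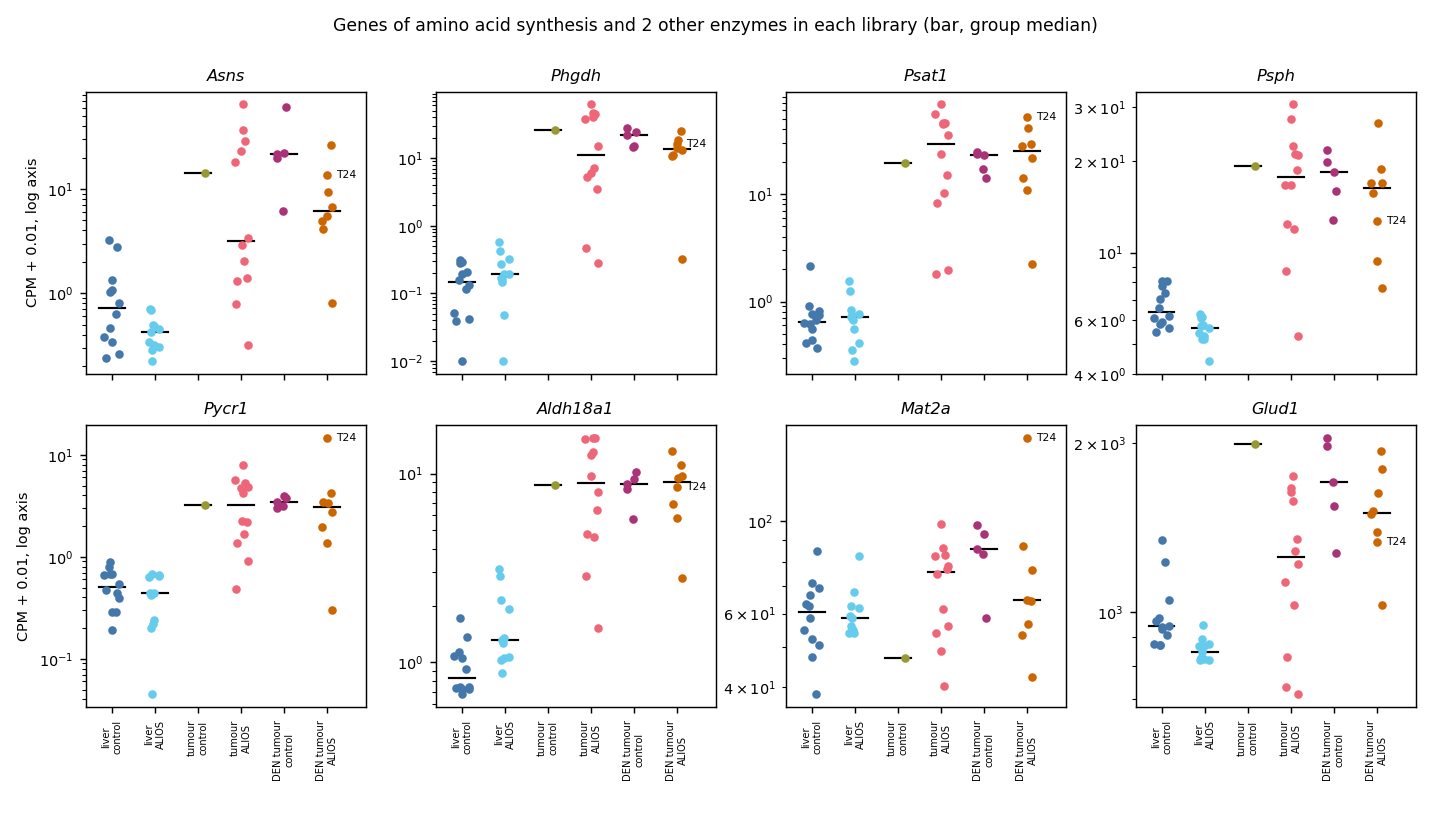
Levels of 6 genes of serine, asparagine and proline synthesis and of Mat2a and Glud1, in CPM + 0.01 on a log axis, with 1 point per library and a bar at each group median. In Psat1 every tumour lies above every ALIOS diet liver, while Mat2a and Glud1 differ by far less between livers and tumours.

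Of 18 regulators of these pathways, all tested, 9 were lower and 2 higher in spontaneous tumours. The counts were 6 and 2 in ALIOS diet DEN tumours and 5 and 1 in control diet DEN tumours. None was called between the diets in liver. Without T24 the ALIOS diet DEN tumours had 7 lower and 2 higher, against 22.6% and 29.8% of all genes. In the 3 tumour comparisons with T24 kept, 25.9%, 19.8% and 24.4% of all genes were lower and 26.9%, 27.7% and 27.3% higher. The 5 of 18 lower in control diet DEN tumours is thus near the share of all genes. Among the liver transcription factors, Tbx3, Onecut1 and Klf15 fell by 1.57, 1.27 and 0.79 in spontaneous tumours. In ALIOS diet DEN tumours Nr1h4, the bile acid receptor, and Klf15 fell by 1.06 and 0.99, and Atf4, a factor of the amino acid response, rose by 0.77. In control diet DEN tumours Tbx3, Klf15 and Ppargc1a fell by 1.86, 0.79 and 0.73.

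The 1 spontaneous tumour of a control fed mouse, T7, gives values but no test. In T7, 33 of the 38 members were below every control diet liver and 0 were above. The share of all genes outside the livers' range in T7 was not taken, so this count has no background. Cps1 was at 1323 CPM, Ass1 at 772 CPM, Ahcy at 160.1 CPM and Hpd at 495 CPM. Its Oat, at 150.5 CPM, and Glul, at 488 CPM, were just below the lowest livers. Its median difference from the control diet livers was -0.96 over the members and 0.13 over the hepatocyte markers.

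Tumours differed in how many members left the range of the livers on their own diet. The fewest below every such liver were 18 in T2 and 19 in T23, and the most were 36 in T11 and in T12. The share of all genes outside the livers' range was not taken per tumour. How far the counts are particular to these members was thus not tested. In T2, 4 members were above every such liver. The 5 tumours with the highest Hpd were T2, T23, T25, T3 and T6, between 979 and 2179 CPM. Cps1 and Ass1 were below the medians of both liver groups in all 26 tumours.

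In 9 members (Nags, Gls2, Sds, Bhmt, Dmgdh, Sardh, Shmt1, Bcat2 and Bckdha) exons share bases with a gene on the opposite strand. The libraries were stranded, but the strand option of the count is not stated, so reads over those bases cannot be assigned with certainty.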

How the data were processed

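Total RNA of liver and tumour was sequenced as stranded, paired-end mRNA libraries. The authors used STAR (2-pass, mm10 genome) for alignment and HTSeq with Gencode M6 exons for counting, and the deposited raw counts per gene were used as given. Tool versions and the strand option are not given in the sources used here. Genes were filtered with filterByExpr, scaled by TMM and tested with edgeR 4.0.16 (glmQLFit, glmQLFTest) in R 4.3.3, with Benjamini-Hochberg adjustment over all genes tested and only the groups compared in each fit. DESeq2 1.42.0 was an alternative. Member levels used exon lengths and positions of Gencode M21 (GRCm38), and promoters are RefSeq's. The script was tested on simulated counts. The members, lists and tests were chosen with earlier results of these data known. Named in each comparison were the 3 called members with the largest rise and fall, the urea cycle genes, each other member at least once, and the 3 largest called changes of each companion list, of which some are not reported here. Totals of 23798251 to 45751398 counts set the precision, and no pair of libraries agreed within sampling noise. Other settings were other scalings, no low-count filter, all 6 groups in 1 fit, a 2-fold minimum and libraries left out.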

Additional observations from a re-analysis of the deposited data

Results flagged for a closer look

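Within groups of 4 to 10 libraries, 13 of 76 searches of member and group found a library far from the rest, where chance flags about 1 in 20 groups, or 3.8 of 76. The searches used the same DEN tumour libraries for every member, and 12 of the 13 flags fell in T24. They are thus not independent, and the excess over 3.8 largely counts 1 library many times. T24, an ALIOS diet DEN tumour, was far below the other 7 in 12 members. Its levels were 3.46 CPM for Cps1, 37.4 for Ass1, 54.7 for Arg1, 0.565 for Gls2, 4.09 for Hal and 3.64 for Uroc1. They were 0.106 CPM for Sds, 96.8 for Tdo2, 50.1 for Kmo, 0.759 for Kynu, 0.229 for Gldc and 33.4 for Aass. In the control diet DEN tumours Tat was far below the others in T17, at 216 CPM.

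By the interaction test, the change from liver to DEN tumour differed between the diets in Cbs, Amt and Oat. The differences were 1.31, 1.32 and 4.74 on the log2 scale, each higher on the ALIOS diet. Without T24 that of Oat was 2.72. Only Amt was called without T17 or without T18.

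T1, labelled a spontaneous tumour but with 45330.4 CPM of summed kidney markers and 849.9 CPM of summed hepatocyte markers, was left out of the comparisons as reported. It was above every control diet liver in Amt at 83.8 CPM, Aass at 554 CPM, Bcat2 at 60.6 CPM and Bckdha at 309.6 CPM. These values lack the TMM scaling of the livers. The highest control diet livers had 81.5 CPM of Amt (N11) and 309.1 CPM of Bckdha (N9). Those margins are too small to rank T1 across unlike scalings. T1 was below all the other 49 libraries in 13 members.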

How the results depend on the processing

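The called falls from liver to tumour kept their direction under every setting run, and the count of members called stayed within 1.5 times except under a 2-fold minimum in spontaneous tumours, which left 19. Leaving out 1 library at a time gave 33 to 35 calls in spontaneous tumours, 25 to 33 in ALIOS diet DEN tumours and 33 to 34 in control diet DEN tumours. The 33 came without T24. With T1 kept, despite its kidney markers, 27 members were called in spontaneous tumours. Leaving out libraries in the spontaneous and ALIOS diet DEN comparisons was chosen after seeing the data.

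The single diet call in liver, Hal, was not stable. DESeq2 called 2 members, Hal and Tdo2, and 0 were called with scaling on hepatocyte markers, without the filter, with all 6 groups in 1 fit or with a 2-fold minimum. Leaving out 1 library gave 0 to 2. In DEN tumours between diets, DESeq2 called 1 member (Amt) and the fit of all 6 groups 2 (Amt and Oat), while leaving out T24 or any control diet DEN tumour gave 0. The interaction gave 1 call (Amt) with all 6 groups in 1 fit and 1 to 5 when T24 or a control diet DEN tumour was left out, 1 (Amt) without T17 or T18 and 5 without T24. Other libraries were not left out there. The cause was not tested. DEN against spontaneous tumours gave 0 calls in each setting, T9 or T24 left out included.

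No paired analysis was possible because livers and tumours are numbered in separate series, so that a shared number marks no shared mouse.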
